A study of Caenorhabditis elegans with 4 samples.

Results

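The regions described here are sites on the X chromosome of *Caenorhabditis elegans* where the transcription factor DPL-1 was detected by ChIP-seq (sequencing of DNA recovered with a chromatin protein) in fed L1 larvae, the first larval stage. They are the peaks of the list made from both ChIP replicates combined that lie on X. Chromosome alone decided which peaks are members, and no measured value entered that rule. X itself was chosen with earlier results of these data known. There were 311 such peaks among 3192 regions in all, with an interval entered more than once counted as 1 region. The other 2881 regions lay on the 5 autosomes.

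The hermaphrodite strain YL448 carried the allele unc-119(ed3) on chromosome III and the transgene vrIs83, which holds an unc-119 rescue copy and a DPL-1 fusion to GFP and 3 Flag tags under the promoter of *ges-1*. Every library came from this strain at 20 °C, after fixation in 2% formaldehyde. The 4 libraries were 2 anti-GFP ChIP libraries and 2 inputs, and 3 peak lists were used, 1 for each ChIP replicate and the combined one. *ges-1* encodes an esterase of the gut, so the binding mapped here is that of transgenic DPL-1 made under an intestinal promoter. The labels do not give the insertion site of the transgene, and the samples include no ChIP of worms without the tag. Chromatin came from whole larvae, so binding in more cells and stronger binding per cell cannot be told apart.

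DPL-1 is the worm DP protein. DP proteins pair with E2F factors, and the pair binds DNA upstream of genes for DNA replication and cell division. In the worm, DPL-1 also belongs to a larger complex with the retinoblastoma relative LIN-35 and MuvB proteins that holds target genes silent. X differs from the autosomes in its gene content and its regulation. It carries few genes that are expressed in the germ line, and in hermaphrodites a dosage compensation complex coats both copies of X and lowers their transcription. These are general facts about the factor and the chromosome and were not measured here. Whether they bear on this map was not tested.

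Positions are given on WormBase build WS220. No genome or annotation of that build was used here, so regions are given by position, without a gene and without their sequence. Each list numbers its peaks from 1, taken as the strongest, to the length of the list. The number is the authors' own rank and is the measure of strength used below, because the authors' score has a ceiling that 71.1% of the X peaks reach (95% exact binomial interval 65.7 to 76.0) and 80.4% of the autosomal peaks (78.9 to 81.8). Read counts are not in the lists, so the depth behind each peak is unknown. Intervals cover the counting of peaks only and treat peaks as independent, which neighbours are not. No p-value is given for X against the autosomes, since peaks of 1 chromosome are not replicates.

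X carried few peaks for its length, and the size of the shortfall went with how far down the ranking a list ran. In the combined list the density on X was 0.503 times that of the autosomes (interval 0.446 to 0.566). With each replicate list limited to its strongest 3195 peaks, the length of the combined list, the ratio was 0.474 (0.419 to 0.535) in replicate 1 and 0.554 (0.493 to 0.620) in replicate 2. In the far longer whole lists it was 0.859 (0.830 to 0.890) for replicate 1, with 3794 X peaks, and 0.928 (0.900 to 0.957) for replicate 2, with 4983. Set against single autosomes in the combined list, the ratio ran from 0.358 (0.312 to 0.410) against III to 0.815 (0.703 to 0.943) against V. Against V the whole replicate lists gave 1.01 (0.970 to 1.06) and 1.03 (0.994 to 1.07), so a shortfall relative to V was seen in the combined list and not in either whole replicate list.

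The shortfall was steepest at the very top of the list and changed most within the first 1000 numbers. X held 1 of the first 200 combined peaks (0.50%, interval 0.013 to 2.75), 3 of numbers 201 to 400 and 3 of numbers 401 to 600. It then held 11 of numbers 601 to 800 (5.5%, 2.78 to 9.63) and 21 of numbers 801 to 1000 (10.5%, 6.62 to 15.6). From there on the share stayed between 10.0% and 17.5% in every class of 200, with no class above the 17.7% that X takes of the span covered by peaks. Thus 32 of the 39 X peaks among the strongest 1000 had numbers above 600.

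**Figure D1:**
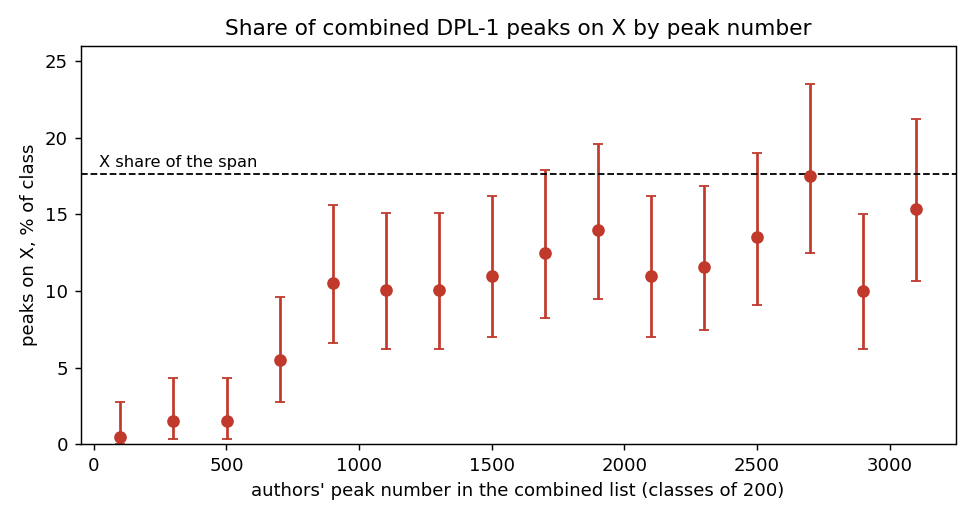
Each point is the percentage of combined peaks on X in a class of 200 consecutive peak numbers (the last class is slightly smaller), with its 95% exact binomial interval, and the dashed line is the 17.7% of the span that lies on X. The first 3 classes hold 1, 3 and 3 X peaks, and the share is 10.0% or higher from numbers 801 to 1000 on.

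Both replicates showed the same course in their own numbering. In replicate 1 the share on X was 3.6% (2.53 to 4.95) for numbers 1 to 1000, 10.7% (8.86 to 12.8) for 1001 to 2000, 12.6% (10.6 to 14.8) for 2001 to 3000 and 17.1% (16.03 to 18.3) beyond 20000. In replicate 2 the same classes had 3.70% (2.62 to 5.07), 12.9% (10.9 to 15.2), 13.5% (11.4 to 15.8) and 17.1% (16.4 to 17.9). In both, the last class held X near its share of the span.

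The 12 strongest X peaks were present in both replicate lists, with numbers from 152 to 883 in replicate 1 and from 158 to 817 in replicate 2. Their midpoints lay at most 35 bp from the replicate 1 midpoint and at most 21.5 bp from the replicate 2 midpoint. Combined number 152, at positions 6804912 to 6805154, headed the chromosome and was number 152 in replicate 1 and 158 in replicate 2. Number 289, at 5984609 to 5984847, was 334 and 219. Number 374, at 14102026 to 14102213, was 448 and 296. Strong X peaks were not gathered at the centre of the chromosome, since 4 of the 12 lay in the central 50% of the span of X.

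Number 396 lay at 5841187 to 5841374 and was number 455 in replicate 1 and 278 in replicate 2. Number 508 lay at 7823083 to 7823406, with replicate numbers 571 and 477. Number 531 lay at 2242928 to 2243061, with 619 and 436. In all of these the replicate 2 number was the lower. Number 594, at 3106198 to 3106338, went the other way, with 595 in replicate 1 and 641 in replicate 2. Number 630, at 2089617 to 2089772, had 733 and 544. Number 642, at 15181418 to 15181741, had 752 and 524. The remaining 3, like numbers 531, 594, 630 and 642, lay within the first or the last 20% of the span. Number 696 was at 15841036 to 15841359 (883 in replicate 1 and 457 in replicate 2), number 704 at 1446801 to 1447124 (859 and 548) and number 709 at 14818789 to 14819112 (662 and 817). In 9 of the 12 the replicate 2 number was lower than the replicate 1 number.

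That lean towards replicate 2 held over the X peaks as a whole. Of the 305 X peaks with a partner in both lists, 171 (56.1%, interval 50.3 to 61.7) had a lower number in replicate 2, against 48.1% (46.3 to 50.0) of 2850 autosomal peaks and 48.9% of all combined peaks. Each autosome lay between 46.6% (IV, interval 42.2 to 51.0) and 48.9% (I, 45.1 to 52.7), and the interval of every autosome overlapped that of X. The median ratio of the replicate 1 number to the replicate 2 number was 1.09 on X (interval 1.003 to 1.16) and 0.986 on the autosomes (0.962 to 1). Large departures leaned the same way. The replicate 1 number was over 2 times the replicate 2 number for 10.5% of X peaks (7.29 to 14.5) and 4.84% of autosomal peaks (4.08 to 5.70), while the opposite held for 4.92% (2.78 to 7.98) and 8.04% (7.06 to 9.09). For the first of these shares the X interval overlapped those of I (3.98 to 7.58) and IV (3.48 to 7.54) and lay above those of II, III and V. When each number was taken as a percentage of the length of its list, 73.4% of X peaks (68.1 to 78.3) and 69.2% of autosomal peaks (67.5 to 70.9) stood higher in replicate 2, and these intervals overlapped. With 1 library per replicate, a difference between X and the autosomes cannot be told apart from a difference between these 2 libraries.

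By strength, the share of X peaks with the lower number in replicate 2 was 61.5% (44.6 to 76.6) of 39 among numbers 1 to 1000, 51.8% (42.2 to 61.2) of 114 among 1001 to 2000 and 57.9% (49.6 to 65.8) of 152 beyond. The autosomes had 47.9%, 48.2% and 48.3%. The X interval lay wholly above 50% in none of the classes taken alone. The greatest departures were single weak peaks. Combined number 2787, at 9337775 to 9338098, was number 12710 in replicate 1 and 2098 in replicate 2, which is 52.2% and 6.99% of the way down the lists. Number 2996, at 4244648 to 4244971, was 2752 and 11353, or 11.3% and 37.8% of the way down.

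**Figure D2:**
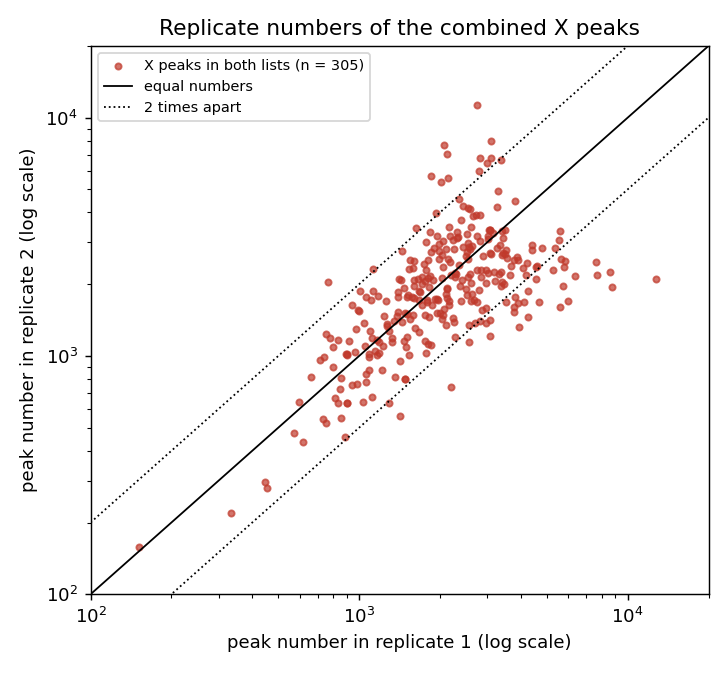
Each point is 1 of the 305 X peaks found in both replicate lists, placed by its peak number in replicate 1 and in replicate 2 on log scales, where low numbers are strong peaks. The solid line marks equal numbers and the dotted lines a factor of 2, and 171 points lie below the solid line, with the lower number in replicate 2.

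Across X peaks the replicate numbers had a Spearman rho of 0.63 (n = 305), and across autosomal peaks 0.84 (n = 2850). Both values describe peaks of the same 2 libraries, selected into a list made from them. Among numbers 1 to 1000 rho was 0.33 for 39 X peaks and 0.90 for 961 autosomal ones, of which 4 and 496 were numbered up to 500. The part of this difference in number range in the rho values was not tested. Among numbers 1001 to 2000 it was 0.16 and 0.21, and beyond 2000 it was -0.27 and -0.23. Each autosome was also negative beyond 2000, from -0.32 on II to -0.14 on V. The classes were cut by the combined number, which comes from the same 2 libraries. A rho within a class therefore does not measure how well the replicates agree.

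Nearly all X peaks recurred in both replicates. Of the 311, 307 shared at least 1 bp with a replicate 1 peak (98.7%, interval 96.7 to 99.6), where 99.6% of all combined peaks did, and 309 shared at least 1 bp with a replicate 2 peak (99.4%, 97.7 to 99.9), where 99.2% of all did. The combined list was made from these libraries, so recurrence describes the list and is not independent support for binding. The autosomal shares were 99.7% (99.4 to 99.9) and 99.2% (98.8 to 99.5). The median distance between the combined and the replicate midpoint on X was 16 bp for replicate 1 (interval 12 to 19) and 14 bp for replicate 2 (11 to 18). On the autosomes it was 8 bp (7.5 to 9) and 11 bp (10 to 12).

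Positions were tighter for the strong X peaks. Among numbers 1 to 1000 the median distance was 8 bp from replicate 1 and 5 bp from replicate 2, and beyond number 2000 it was 21.5 bp and 24 bp. The autosomal peaks of these 2 classes had 5 and 7 bp, and 16 and 23 bp, so the classes differed more than X and the autosomes did within a class.

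The 6 X peaks missing from a replicate list were each present in the other. The strongest was number 1825, at 3245813 to 3246136, which had no replicate 1 partner and was number 1914 in replicate 2. Number 2574, at 16813891 to 16814214, was matched in replicate 2 alone by number 4842. Number 2869, at 17030442 to 17030765, was matched there by number 1732. These and number 3071, at 13141387 to 13141710 and matched by replicate 2 number 2122, made 4 peaks absent from replicate 1. The other 2 were absent from replicate 2. Number 3187, at 9228244 to 9228567, was number 2394 in replicate 1, and number 3193, at 8674526 to 8674849, was number 2465.

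Outside the combined list, the weaker X peaks of a replicate were found again in the other replicate in a lower percentage of cases than autosomal ones. Of replicate 1 peaks on no combined peak, 994 of 3456 on X (28.8%, interval 27.3 to 30.3) and 32.5% (31.8 to 33.2) on the autosomes shared at least 1 bp with replicate 2. Of replicate 2 peaks, 988 of 4657 on X (21.2%, 20.0 to 22.4) and 25.6% (25.05 to 26.2) on the autosomes shared with replicate 1. The intervals of X and of the pooled autosomes did not overlap in either direction. On V the shares were 30.8% (29.4 to 32.3) for replicate 1 peaks and 23.1% (22.0 to 24.3) for replicate 2 peaks. Both of these intervals overlapped those of X. For replicate 1 peaks the interval of IV, 30.26 to 33.18, also overlapped that of X, which reached 30.30. Fewer peaks of the other list lay on X to be met, at 281 per Mb in replicate 2 against 303 on the autosomes and 214 against 249 in replicate 1, and the part of this density in the difference was not tested. X held 14.9% of such recurrent peaks in both lists.

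A smaller share of X peaks than of autosomal peaks fell below the most frequent width, also among numbers 601 to 800 and 801 to 1000. Most peaks of the combined list have a single width of 324 bp, and 24.6% of all combined peaks are narrower. On X only 9 of 311 were narrower (2.89%, interval 1.33 to 5.42), against 26.9% (25.3 to 28.6) on the autosomes, where single chromosomes lay between 25.3% and 29.1%. No X peak was wider than 324 bp, which allows a share of up to 1.18%, while 26 autosomal peaks were (0.90%, 0.59 to 1.32). Of autosomal peaks, 95.0% of those numbered up to 500 were narrow, against 1.04% of those beyond number 1000. X had few strong peaks, and how much of the contrast goes with that was not tested.

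Within strength classes the intervals of X and the autosomes were apart in 2 classes, which hold 11 and 21 X peaks. Among numbers 601 to 800, 2 of 11 X peaks were narrow (18.2%, interval 2.28 to 51.8), against 72.0% (65.0 to 78.2) of 189 autosomal peaks. Among numbers 801 to 1000 it was 1 of 21 (4.76%, 0.12 to 23.8) against 32.4% (25.6 to 39.8) of 179. Numbers were not matched within a class, and X peaks 782, 785, 790, 795 and 799 lay at the weak end of the first. The part of this in the contrast was not tested. Of the 4 X peaks numbered up to 500, all were narrow, as were 2 of the 3 numbered 501 to 600. Beyond number 1000 none of the 272 X peaks was narrow, which allows up to 1.35%, and 1.04% (0.64 to 1.60) of the 1920 autosomal peaks were, so those intervals overlapped. In the replicate lists, narrow means below that list's own most frequent width, 344 bp in replicate 1 and 284 bp in replicate 2. By that measure 5 X peaks were narrow in each list. These were 0.13% (0.043 to 0.31) of X peaks in replicate 1 and 0.10% (0.033 to 0.23) in replicate 2. The autosomes had 3.04% (2.81 to 3.29) and 2.17% (1.99 to 2.35). Among the strongest 3195 peaks of each list, narrow was set by the most frequent width of those peaks. There 1.69% of X peaks in replicate 1 and 1.47% in replicate 2 were narrow, against 21.6% and 19.0% on the autosomes. The sources used here do not say how the peak caller set a width.

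**Figure D3:**
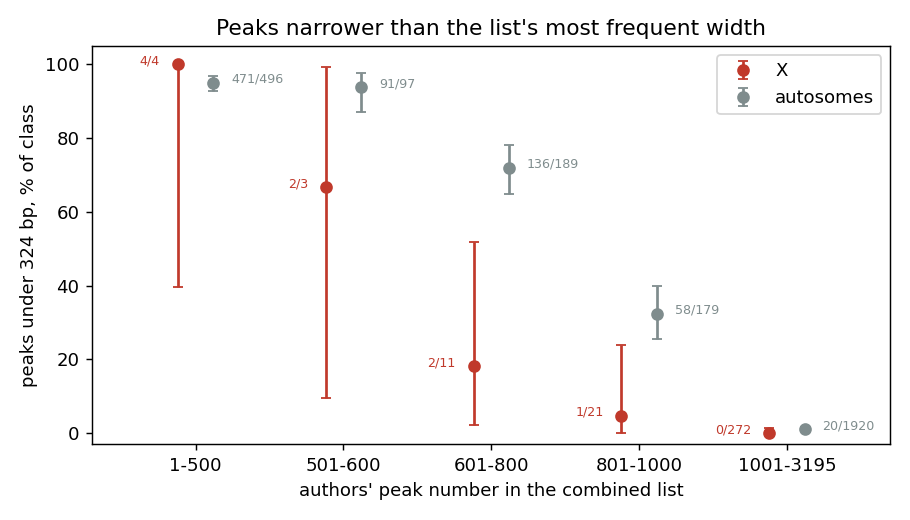
Points give the percentage of combined peaks narrower than 324 bp in classes of the authors' peak number, on X and on the autosomes, with 95% exact binomial intervals and the counts beside them. X lies below the autosomes in the classes 601 to 800 (2 of 11 against 136 of 189) and 801 to 1000 (1 of 21 against 58 of 179).

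Along the chromosome the X peaks had no single central rise. The central 50% of the span, between 25% and 75% of the way along, held 160 X peaks (51.4%, interval 45.7 to 57.1), against 59.4% (57.6 to 61.2) of autosomal and 58.6% of all combined peaks. Single autosomes ranged from 55.9% (51.5 to 60.2) on IV to 68.1% (63.5 to 72.4) on V, and the X interval overlapped those of I, II, III and IV and lay below that of V. In 10 equal segments of the span from left to right, X held 23, 26, 34, 35, 40, 27, 18, 40, 42 and 26 peaks. The sparsest segment, from 60% to 70%, lay between segments with 27 and 40 peaks. The autosomes together had 12.4% of their peaks in that same segment, where X had 5.79%, and 7.71% in the segment from 80% to 90%, where X had 13.5%. Taken singly, II, III, IV and V each had a segment with a lower share than 5.79%. The lowest was 3.55%, on V from 80% to 90%. The lowest on I was 7.69%.

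The replicate lists were flatter along X. The segment from 60% to 70% held 9.80% of X peaks in replicate 1 and 9.39% in replicate 2, and the segments of either list ranged from 8.17% to 11.0%. The dip in the combined list was present in its weaker part, with 6 of 157 peaks numbered beyond 2000 in that segment and 26 in the next. Among the 39 X peaks numbered up to 1000, 9 lay in the segment from 80% to 90% and 6 each in the segments from 10% to 20% and from 30% to 40%.

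**Figure D4:**
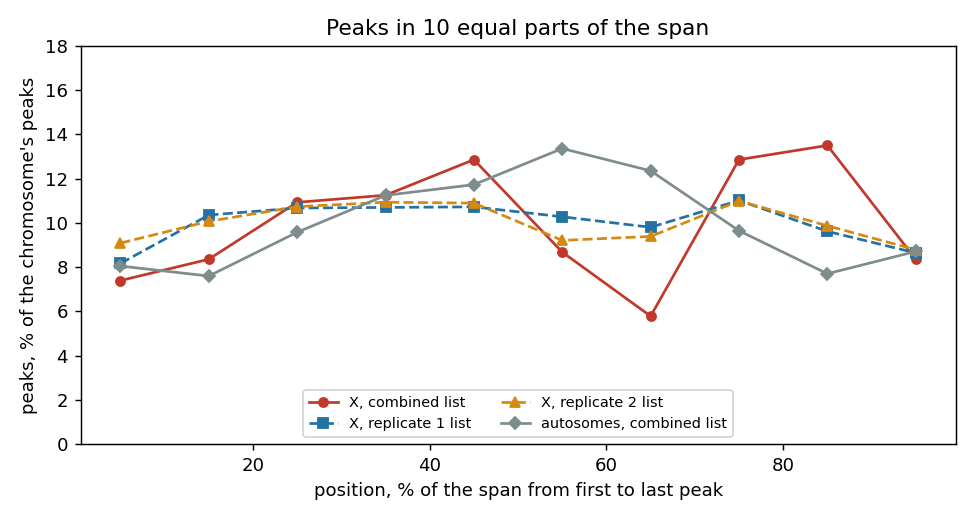
Lines give the percentage of a chromosome's peaks in each of 10 equal segments of the span between its first and last peak, for X in the 3 lists and for the autosomes pooled in the combined list. Combined X peaks drop to 5.79% between 60% and 70% of the span and reach 13.5% between 80% and 90%, and the replicate lists stay between 8.17% and 11.0%.

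Neighbouring X peaks lay far apart. The distance between neighbouring midpoints had a median of 33.2 kb on X (interval 28.5 to 39.0) and 15.5 kb on the autosomes (14.4 to 16.8), with quartiles of 11.1 and 80.2 kb on X. V had the longest median of the autosomes, 24.9 kb (20.5 to 28.7), and its interval overlapped that of X. Divided by the mean distance of its own chromosome, the median was 0.585 on X (0.503 to 0.688) and 0.590 on the autosomes (0.549 to 0.637). The SD of the distances was 1.11 times their mean on X and on III, 1.20 on I, 1.25 on II, 1.38 on IV and 1.50 on V. By this measure the spacing on X was about as uneven as that on III and less uneven than on the other autosomes.

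Long stretches of X lacked a combined peak. Distances of 200 kb or more numbered 14 of 310 on X (4.52%) and took up 20.2% of its span. On the autosomes there were 25 of 2876 (0.87%), which took up 9.70% of the span. Of these, 15 lay on V, where they took up 24.1% of the span, and none on III. The longest distance on X was 338.8 kb, between the peak that ends at 3803681 and the one that starts at 4142112, and the longest on an autosome was 620.9 kb, on V. The next on X were 336.9 kb from 16275588 to 16612184, 281.5 kb from 7501268 to 7782400, 280.7 kb from 11656981 to 11937331 and 266.3 kb from 11339608 to 11605602. The last 2 were separated by only a short stretch and both lay in the sparse segment of the span between 60% and 70%.

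These stretches were not free of calls in the replicates. They held 67, 67, 70, 60 and 52 replicate 1 peaks and 97, 85, 84, 77 and 84 replicate 2 peaks. Between 20 and 22 of the replicate 1 peaks in each shared bases with a replicate 2 peak. The strongest replicate 1 call in them was number 2270 and the strongest replicate 2 call number 2131, both in the number range of the weaker combined peaks. Absence from the combined list does not show that a stretch was unbound.

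Windows of 100 kb gave the same picture. Of 177 windows on X, 42 held no combined peak (23.7%, interval 17.7 to 30.7), against 11.2% (9.12 to 13.5) of 822 autosomal windows and 24.9% (19.2 to 31.3) of those on V. At most 3 empty windows followed each other. The empty windows held a median of 19 replicate 1 and 26 replicate 2 peaks, and the 135 other windows 22 and 29. Windows with 5 or more combined peaks numbered 9 on X (5.08%, 2.35 to 9.43) and made up 29.8% (26.7 to 33.1) of the autosomal windows. On V they made up 13.4% (9.09 to 18.8), an interval that overlapped that of X. The variance of the count per window was 1.38 times its mean on X, between the 1.30 of III and the 1.42 of I, and 1.52 times on IV, 1.71 on II and 1.80 on V.

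The 9 dense windows of X began between 25.98% and 81.3% of its span. The densest, at 6709237 to 6809236, held 10 peaks, with 35 replicate 1 and 43 replicate 2 peaks, and it includes the strongest X peak. The next, at 4609237 to 4709236, held 6. The next 3 by their order along X held 5 each, starting at 6209237, 8009237 and 10509237. The window with 10 peaks exceeded every other X window by at least 4, and the autosomal maximum was 14.

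Close neighbours were uncommon on X apart from 1 cluster. A neighbour within 2 kb was present for 33 X peaks (10.6%, interval 7.42 to 14.6), against 21.7% (20.2 to 23.3) on the autosomes and 20.6% of all combined peaks. None of the X peaks had a neighbour within 500 bp, which allows up to 1.18%, while 3.64% (2.99 to 4.39) of autosomal peaks did. On V the shares were 17.5% (14.1 to 21.3) within 2 kb and 1.77% (0.77 to 3.47) within 500 bp, and both intervals overlapped those of X. Since peaks on X are sparser, fewer close neighbours go with the lower density, and the part of density in this contrast was not tested. Within 1 kb, X had 6 pairs and 1 run of 5 peaks. The autosomes had 136 pairs, 11 runs of 3 and 1 run of 4, so the run on X had more members than any other in the combined list.

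This cluster lay at 6740934 to 6744139, in the densest window. Its peaks, from left to right, had combined numbers 1829, 2582, 2491, 2646 and 1338, and each was the modal 324 bp wide. The first 2 distances between midpoints, 531 and 591 bp, were the shortest on X. Each of the 5 had a separate partner in each replicate, with numbers 3066, 1988, 3507, 2247 and 1272 in replicate 1 and 1216, 2746, 2676, 2802 and 1337 in replicate 2. The cluster thus recurred as 5 separate intervals in both libraries, with its rightmost peak the strongest of the 5 in the combined list and in replicate 1. The third closest pair on X lay elsewhere, at 15606842 to 15607819, where numbers 1625 and 1638 were 654 bp apart. A further pair, numbers 3066 and 1266 at 13583979 to 13585116, was 814 bp apart and joined a weak to a stronger peak.

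**Figure D5:**
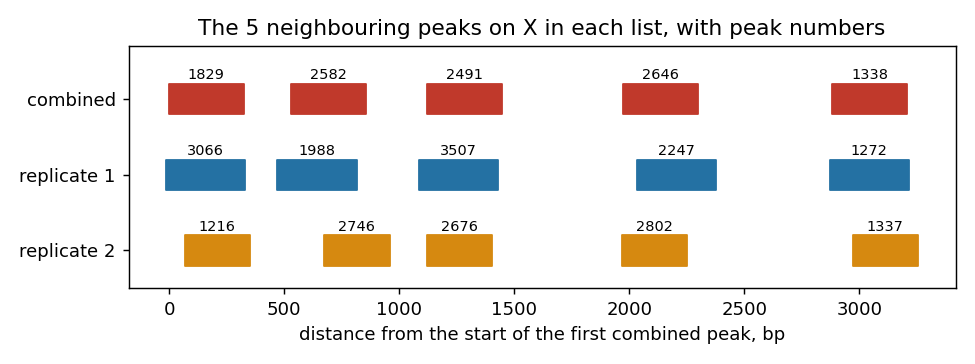
Bars show the 5 neighbouring X peaks in the combined, replicate 1 and replicate 2 lists by their distance in bp from the start of the first combined peak, drawn to scale, with the authors' peak number above each bar. Every combined peak has 1 partner in each replicate list, and the rightmost has numbers 1338, 1272 and 1337.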

How the data were processed

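The deposited files hold intervals on build WS220 of WormBase, per the file headers, and the authors deposited a score for each peak on an unexplained scale. The method column names SPP, a peak caller, and IDR, the irreproducible discovery rate. The sources used here do not give the aligner, the thresholds, the use of the inputs or the selection of the combined list. The replicate lists held 24366 and 30000 entries. Replicates are separate samples per the labels, which do not say whether they came from separate cultures.

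Identical intervals were joined, which removed 3 entries of the combined list, none on X. Overlap was at least 1 bp, and a peak with several partners took the lowest number. The span of a chromosome was the stretch between its outermost peaks in the 3 lists. Percentages have 95% exact (Clopper-Pearson) intervals, counts exact Poisson intervals, density ratios exact conditional intervals and medians order-statistic intervals. Overlap, distance and cluster detection were checked on simulated data. Python 3.11.15, numpy 2.4.6, pandas 2.3.3, scipy 1.17.1 and matplotlib 3.10.9 were used.

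Regions named are the 12 X peaks with the lowest numbers, the 5 longest and 5 shortest distances, the 5 densest windows, X peaks missing from a replicate list and the extremes of rank difference. The comparisons of width, of replicate numbers and of runs within 1 kb were chosen after their values had been seen. The members and measures were chosen with earlier results of these data known. The input libraries and gene annotation were not analysed here.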

Additional observations from a re-analysis of the deposited data

How the results depend on the processing

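No paired analysis was possible because no input list was used and only the inputs share numbers with the ChIP libraries. Of 47 other settings 29 moved a value by less than its interval and 18 by more. Most of the 18 use fewer peaks or another distance by construction. Some of the 29 only kept the repeated entries. No repeated entry of the combined list lay on X, so these settings could not change a value taken from X peaks alone. With the stronger 50% of the combined list, X had 6.33% of peaks, a density ratio of 0.315, 44.6% of its peaks in the central part (autosomes 58.8%), a median spacing of 122312 bp (autosomes 32354 bp), no neighbour within 2 kb (0%, autosomes 9.04%), 57.6% of windows empty and a match in both replicates of 100%. The middle 33.3% of the span held 34.7% of X peaks and 40.9% of autosomal ones. Neighbours within 1 kb or 5 kb were present for 5.47% or 25.4% of X peaks (autosomes 10.7% and 42.7%), and windows of 50 kb or 200 kb were empty in 45.8% or 3.41%. With 50% reciprocal overlap 96.5% of X peaks were matched in replicate 1 and 97.4% in replicate 2 (autosomes 93.6% and 90.5%). A combined peak under 50% of a replicate peak's width cannot pass this rule. Peaks below the most frequent width were 2.89% on X and 26.9% on the autosomes, and the part of width here was not tested. With only the strongest 3195 peaks of a replicate, the matched shares were 79.4% and 87.1% on X (autosomes 90.4% and 87.1%). The strongest 3195 peaks of a single replicate were also used in place of the combined list. Neighbours within 2 kb then ranged from 12.1% to 15.6% (autosomes 21.8% to 23.0%), and the X share from 9.24% to 10.6%. The density ratio ranged from 0.474 to 0.554 and the central part from 51.0% to 52.2%. With the combined peaks ranked by the number of their partner in a single replicate, the median rank on X ranged from 1931 to 2101. Added after the data were seen, the number as a percent of each list gave 73.4% of X peaks lower in replicate 2 and 69.2% of autosomal ones. Chromosome lengths are not in the file headers, so the density with them was not run. The lists give no depth, which limits every statement on absence.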
